A study of Mus musculus with 2 samples.

Results

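DNA built from A and T alone was compared with the rest of the repeat fraction of the mouse genome in a chromatin immunoprecipitation sequencing (ChIP-seq) study of a mitotic histone mark. The rows described are 11 of 952 repeat types in the read-count tables. They were chosen by a rule on their names, with earlier results of these data known. Of these, 9 are AT-only simple repeats, named by a bracketed unit that holds only A and T, and 2 are low-complexity rows, AT_rich and GC_rich. All 11 had at least 100 input reads, the minimum used throughout, as did 704 of the 952 rows.

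The ChIP group is 1 sample of wild-type (WT) mouse embryonic stem (ES) cells of strain 129S1/SvImJ, precipitated with 10 µg of an antibody against histone H3.3 phosphorylated at S31 (H3.3S31ph). The input group is 1 matched sample of the same kind of chromatin, sequenced without precipitation. Both come from cells below passage 20 in serum with leukemia inhibitory factor, held for 12 h in 9 µM RO-3306, which blocks the kinase CDK1 and with it entry into mitosis, and collected in mitosis 11 h after release. How many of the collected cells were in mitosis was not measured in these tables, and the tables hold no expression values against which to check the cell type. The tables hold 12235477 ChIP and 8856751 input reads over 2 lanes, which are runs of the same libraries. With 1 sample in each group there was no test, and every interval below is a 95% interval of counting error that says nothing of the spread between cultures.

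The H3.3 variant of histone H3 can enter chromatin without DNA replication, and S31 is a residue that the replicative H3 histones lack. Its phosphorylation is a mark of mitosis, and in mouse ES cells it is best known from telomeres. Simple repeats are tandem arrays of a short unit. AT-only arrays include runs of A, which also form the tails of many retrotransposed elements, and alternating T and A, which melts easily and can fold back on itself. A low-complexity row gathers stretches of biased base content that have no fixed repeated unit.

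The AT-only arrays with units of up to 4 bases are written out here for 30 bases from the unit that names each row, 5′ to 3′, so that their base balance and their steps from T to A can be seen. The first copy of the unit is in capitals, and units of the same length have letters in ascending order of their ratio. On the opposite strand an array reads as its reverse complement, so the unit taa and the unit tta are the same double-stranded DNA. No genome positions were used, because the rows are repeat types.
(A)n, the 1-base unit in a plain run: Aaaaaaaaaaaaaaaaaaaaaaaaaaaaaa
(TA)n, the 2-base unit in an alternating array: TAtatatatatatatatatatatatatata
(TAA)n, the 3-base unit: TAAtaataataataataataataataataa
(TAAA)n, the 4-base unit b, which is unequal in its bases: TAAAtaaataaataaataaataaataaata
(TTAA)n, the 4-base unit a, which is equal in its bases: TTAAttaattaattaattaattaattaatt
Over all 9 rows, the arrays of (TA)n and (TTAA)n equal their own reverse complement. In the other 7 arrays the strand as listed holds more A than T. Every unit but that of (A)n holds at least 1 step from T to A, and (TATAA)n holds 2.

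All 9 AT-only repeats took a smaller share of the ChIP reads than of the input reads. The ratio of a row divides its share of the tabulated ChIP reads by its share of the tabulated input reads, so 1 means no difference from input. Together the 9 held 32910 ChIP reads against 32974 input reads, which is 0.269% (exact binomial interval 0.266 to 0.272) of the ChIP reads against 0.372% (0.368 to 0.376) of the input reads. Their pooled ratio was 0.722 (exact interval 0.711 to 0.734), and the median over the 9 rows was 0.712. The interval lay below 1 for 9 of 9 rows, but so it did for 79.5% of all 704 rows, and the median repeat of the tables had a ratio of 0.805. A row below 1 was therefore the usual case on this scale. The median repeat gives a closer comparison, because it does not move with the scale set between the libraries. Relative to it, 6 of 9 AT-only rows had an interval below, against 19.2% of all rows, and 1 of 9 had an interval above, against 27.3% of all rows. With single lanes the first count was 6 of 9 rows in lane 1 and 3 of 8 rows with the minimum in lane 2. Intervals are wider in a single lane, and the share of all rows was not counted there, so these counts have no background beside them. The log2 ratio of the median AT-only row relative to the median repeat was -0.18. It was -0.12 in lane 1 alone and -0.11 over the 6 rows with at least 1000 input reads. In lane 2 alone it was -0.098, over the 8 rows left without (TTAAA)n, so the lanes do not cover the same rows. Each value is relative to the median repeat of its own setting, which was -0.297 in log2 ratio with at least 1000 input reads. Of the 9 rows, (TTAAA)n alone had a ratio under 0.8 times that of the median repeat, as did 2.41% of all rows. The other 8 AT-only rows lay between 0.843 and 1.08 times the ratio of the median repeat.

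**Figure D1:**
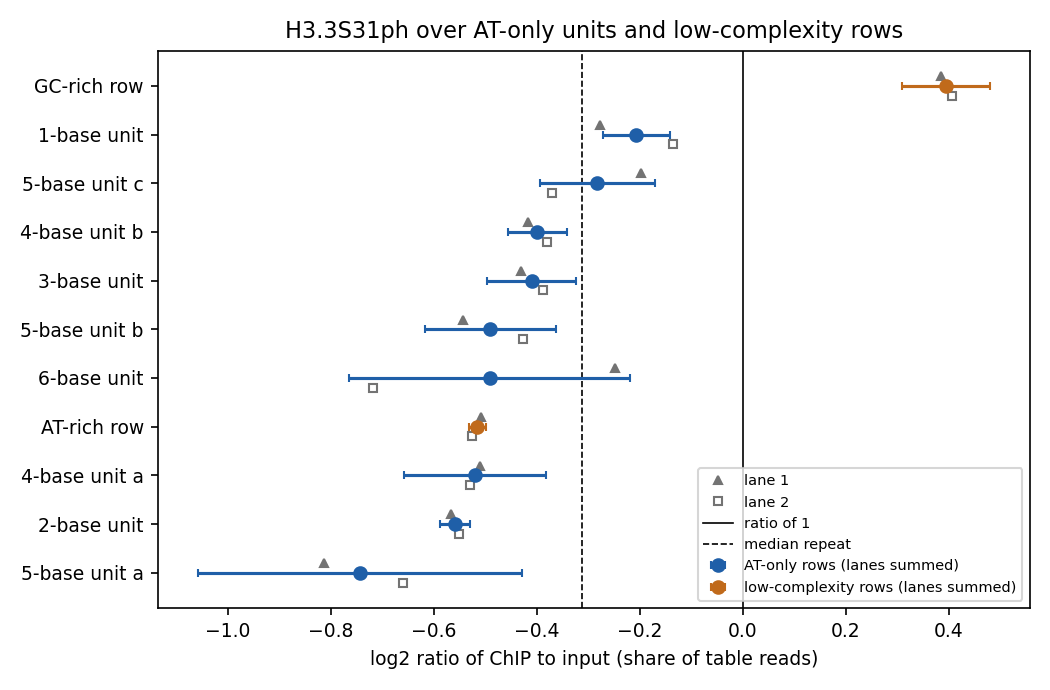
Log2 ratio of ChIP to input (x axis) for the 9 AT-only rows in blue and the 2 low-complexity rows in orange, with lanes summed and 95% intervals of counting error. Triangles and squares are lane 1 and lane 2, the solid line is a ratio of 1 and the dashed line is the median repeat at -0.31. The 5-base unit a is (TTAAA)n, unit b of that length is (TATAA)n, and unit c is (TAAAA)n. The 4-base unit a is (TTAA)n, and unit b of that length is (TAAA)n. All AT-only rows lie left of the solid line, 7 of them left of the dashed line, and GC_rich lies alone on the right at 0.40.

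With the lanes summed, the 1-base unit had the highest point value of the AT-only rows, though in lane 1 alone (TAAAA)n and (TAAAAA)n were higher. (A)n, the row of plain A runs, had 2111 and 2171 ChIP reads in lanes 1 and 2, against 1842 and 1735 input reads. Its ratio was 0.867 (0.829 to 0.906), which is 1.08 times the ratio of the median repeat. It lay below input and above the median repeat, and 73.7% of all 704 rows had a lower ratio. It was also the single row of the 11 whose lanes differed by more than counting error, with a ratio of 0.825 (0.775 to 0.879) in lane 1 and 0.911 (0.855 to 0.971) in lane 2. Relative to the median repeat of each lane, its log2 ratio was 0.033 (-0.058 to 0.12) in lane 1 and 0.17 (0.083 to 0.27) in lane 2. Over all 704 rows, 5.97% had lanes that differed in this sense.

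The 2-base unit had the best measured low value. (TA)n, the alternating array, had 9419 and 8172 ChIP reads in lanes 1 and 2, against 10050 and 8713 input reads. Its ratio of 0.679 (0.665 to 0.693) was 0.843 times that of the median repeat, and 4.69% of all rows had a lower ratio. The lanes gave 0.675 and 0.683, closer to each other than counting error. (TA)n held 56.9% of the input reads of the AT-only rows, so it set most of the pooled value. Without it the pooled ratio of the other 8 rows was 0.780 (0.763 to 0.798). This alternative was chosen after seeing the data. The log2 ratio of (A)n minus that of (TA)n was 0.35 (0.28 to 0.42).

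The 3-base unit was between them. (TAA)n had 1191 and 1022 ChIP reads in the lanes, against 1156 and 973 input reads, a ratio of 0.752 (0.709 to 0.799). Relative to the median repeat its log2 ratio was -0.097 (-0.18 to -0.011). It was the sole AT-only row of its unit length.

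Both 4-base units lay below the median repeat. (TAAA)n had 2690 and 2490 ChIP reads in the lanes, against 2585 and 2359 input reads, and a ratio of 0.758 (0.729 to 0.789). (TTAA)n, which has the same length but as many T as A, had 458 and 389 ChIP reads, against 470 and 409 input reads, and a ratio of 0.698 (0.634 to 0.767). The point value of (TTAA)n was lower in both lanes. The log2 ratio of (TAAA)n minus that of (TTAA)n was 0.12, with an interval from -0.027 to 0.27 that includes 0.

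Only the lengths of 4 and 5 bases had more than 1 AT-only row, and the 3 units of 5 bases spread more than the 2 of 4 bases. (TAAAA)n, with a single T, had 747 and 667 ChIP reads in the lanes, against 617 and 628 input reads. Its ratio was 0.822 (0.761 to 0.888), and it was not separable from the median repeat, at 0.031 (-0.080 to 0.14) in log2 ratio. (TATAA)n had 543 and 461 ChIP reads, against 570 and 451 input reads, and a ratio of 0.712 (0.652 to 0.777). (TTAAA)n had 83 and 73 ChIP reads, against 105 and 84 input reads, and a ratio of 0.597 (0.480 to 0.743). It had the lowest point value of the 11 rows and rank 5 from the bottom among all 704, but rested on 189 input reads. Among these 3 rows, which share length and base set, the order of A and T and the number of T differ. The log2 ratio of (TAAAA)n exceeded that of (TTAAA)n by 0.46 (0.14 to 0.79) and that of (TATAA)n by 0.21 (0.041 to 0.37). (TATAA)n and (TTAAA)n hold the same bases in another order, and their difference of 0.25 (-0.078 to 0.58) had an interval that includes 0.

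The 6-base unit was too thinly covered to place. (TAAAAA)n had 117 and 106 ChIP reads in the lanes, against 100 and 127 input reads. The lane ratios were 0.842 (0.639 to 1.11) and 0.608 (0.465 to 0.792), the widest lane difference of the 11 rows at 0.47 in log2 ratio, though within counting error. Summed, the ratio was 0.711 (0.588 to 0.859), and its interval included the median repeat.

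Unit length by itself did not order the rows. Medians relative to the median repeat were 0.11 at 1 base, -0.25 at 2 bases, -0.097 at 3 bases, -0.15 at 4 bases, -0.18 at 5 bases and -0.18 at 6 bases, all in log2 ratio. The longest units gave values that differed between lanes, with -0.23 in lane 1 and -0.090 in lane 2 at 5 bases, and 0.063 and -0.41 at 6 bases. At 5 bases the lane 2 value leaves out (TTAAA)n, which had 84 input reads there, so the lanes do not cover the same rows. With at least 1000 input reads the median was -0.10 at 4 bases, where (TAAA)n alone was left, and -0.089 at 5 bases. These 2 values are relative to the median of all rows with that minimum. Spearman's rho between unit length and log2 ratio was -0.26 over the 9 rows. The balance of A and T followed the ratio more closely. With the excess of A over T per base of the unit, which is 1 for (A)n and 0 for (TA)n and (TTAA)n, rho was 0.75. With T-to-A steps per base, which run from 0 in (A)n to 0.5 in (TA)n, rho was -0.36. Over the 6 rows with at least 1000 input reads rho was 1 with the excess of A and -1 with the steps, but in these 6 rows the 1 measure falls exactly as the other rises. The 3 rows left out there, (TTAA)n with 879 input reads, (TAAAAA)n with 227 and (TTAAA)n with 189, are the thinly covered ones. These correlations describe 9 rows that share both libraries, and they have no test.

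**Figure D2:**
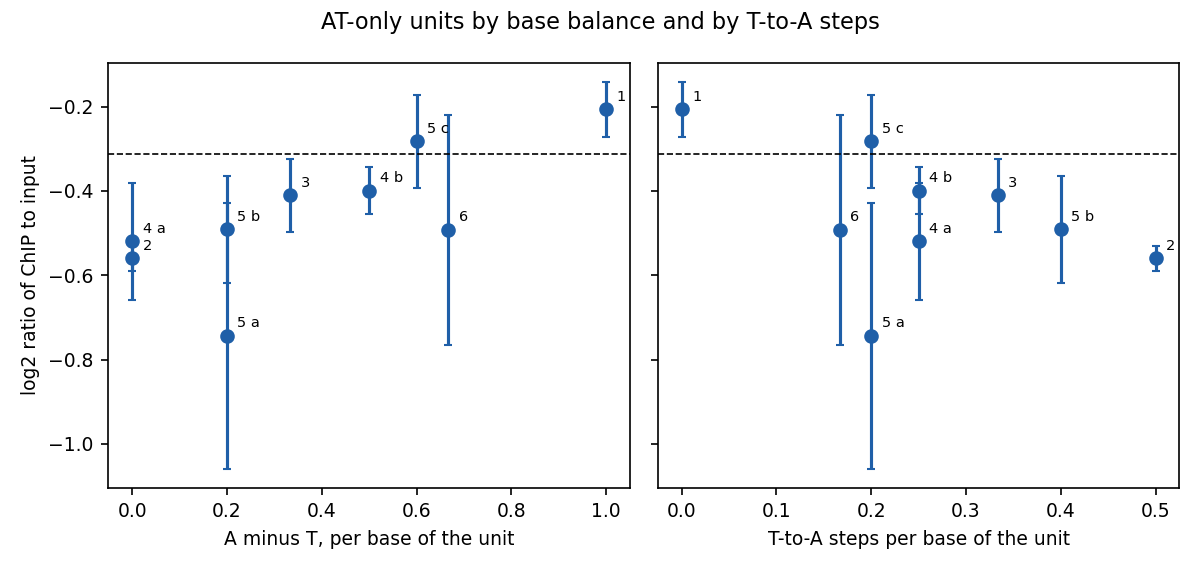
Log2 ratio of ChIP to input (y axis) of the 9 AT-only rows with 95% intervals of counting error, against the excess of A over T per base (left) and the T-to-A steps per base (right). Numbers give the unit length, with letters as in the plot of all members, and the dashed line is the median repeat at -0.31. Ratios are higher toward the right on the left panel, where (A)n stands at an excess of 1, and the 6-base unit and the 5-base unit a stand off the trend with wide intervals.

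In order of log2 ratio, (TTAAA)n was lowest at -0.74, ahead of (TA)n at -0.56, (TTAA)n at -0.52 and AT_rich at -0.52. Then came (TAAAAA)n at -0.49, (TATAA)n at -0.49, (TAA)n at -0.41 and (TAAA)n at -0.40. The top of the order was (TAAAA)n at -0.28, (A)n at -0.21 and GC_rich at 0.40. Of the 10 steps between neighbours in this order, 9 had an interval that includes 0. The remaining step, from (A)n to GC_rich, was 0.60 (0.50 to 0.71) in log2 ratio. The rows were sorted by the same values that were then compared, so small steps between neighbours follow from the sorting. These steps therefore cannot tell a graded series from groups of equal rows. Some AT-only rows that are far apart in the order, such as (A)n and (TA)n, can be ordered at this depth.

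The 2 low-complexity rows lay on opposite sides of the input. GC_rich had 1615 and 1535 ChIP reads in lanes 1 and 2, against 891 and 843 input reads. Its ratio was 1.31 (1.24 to 1.40), with 1.30 in lane 1 and 1.33 in lane 2. An interval above 1 was found for 7.81% of all rows. Its ratio was 1.63 times that of the median repeat, and 96.9% of all 704 rows had a lower one. AT_rich had 30070 and 27622 ChIP reads, against 30787 and 28943 input reads. This is the largest of the 11 rows, with 63.2% of their input reads. Its ratio was 0.699 (0.691 to 0.707), with 0.703 in lane 1 and 0.695 in lane 2, and 6.96% of all rows had a lower ratio. GC_rich exceeded AT_rich 1.88-fold (1.77 to 2.00). This difference within the libraries does not depend on the scale between them.

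AT_rich thus stood where the AT-only arrays stood, although it has no repeated unit. Its log2 ratio of -0.52 lay close to the AT-only median of -0.49. The log2 ratio of AT_rich exceeded that of (TA)n by 0.043 (0.0090 to 0.077). GC_rich stood among the units made only of G and C, a comparison chosen after values had been seen. The 2 such units with at least 100 input reads, (CGG)n and (CCCCG)n, had a pooled ratio of 1.43 (1.29 to 1.59). The 7 with fewer reads had 468 ChIP reads against 292 input reads, a pooled ratio of 1.16 (1.00 to 1.35).

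Compared with simple repeats that hold G or C, the AT-only rows had the lowest median. Their median log2 ratio was -0.49 over 9 rows, against -0.30 over 20 units with 1 G or C, -0.20 over 20 units with 2, -0.045 over 20 units with 3 and 0.097 over 9 units with 4 or 5. Over all 69 units with G or C the median was -0.20, and it was also -0.20 without the telomeric unit (CCCTAA)n. The AT-only median minus this median was -0.29, and it was -0.16 with at least 1000 input reads. An interval below the median repeat was seen in 6 of the 9 AT-only rows, in 5 of the 20 units with 1 G or C and in 0 of the 20 units with 2. The ranges overlapped: AT-only rows ran from -0.74 to -0.21, and units with 1 G or C from -0.70 to -0.21. Within single lengths the AT-only median was also lower, but only at 2 bases did the intervals of the AT-only and the other units lie apart. At 2 bases the AT-only value was -0.56, against a median of -0.28 over 2 units with 1 G or C. At 3 bases it was -0.41 against -0.34 over 4 units, at 4 bases -0.46 against -0.26 over 8 units, and at 5 bases -0.49 against -0.38 over 4 units. At 6 bases it was -0.49 against -0.41 over 2 units, with the thinly covered (TAAAAA)n as the AT-only row. At 3 bases (GAA)n had the same rounded value as the AT-only unit, -0.41. At 5 bases (TAAAA)n at -0.28 lay above the median of the units with 1 G or C.

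**Figure D3:**
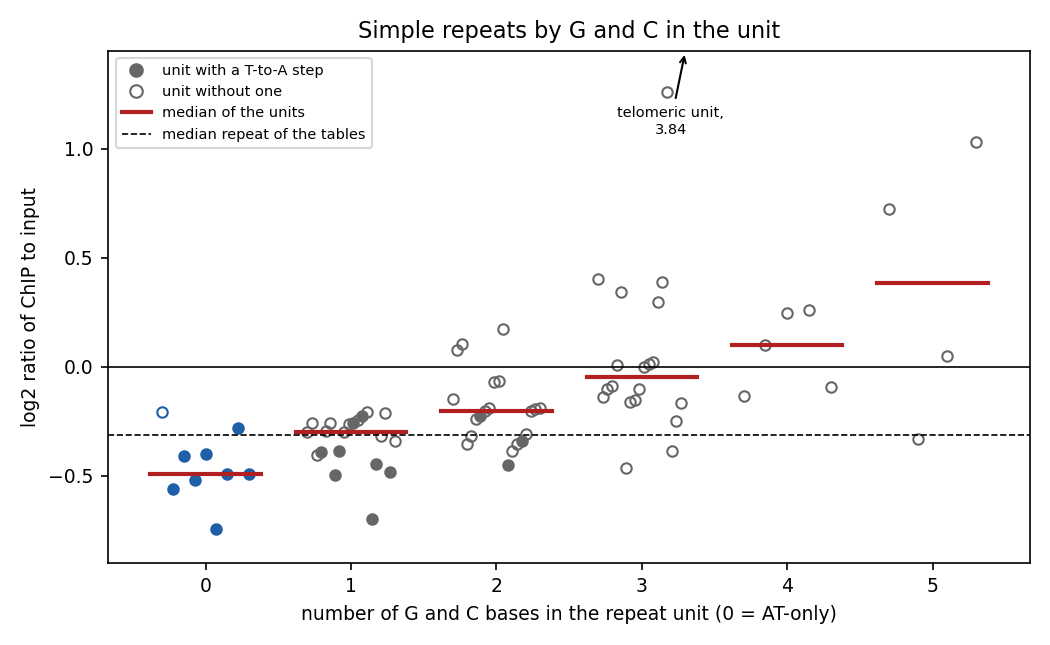
Log2 ratio of ChIP to input (y axis) of the 78 simple repeats with at least 100 input reads, by the number of G and C bases in the unit (x axis). Blue points are the 9 AT-only rows and grey points the other units, filled points hold a T-to-A step, red bars are medians, the solid line is a ratio of 1 and the dashed line is the median repeat at -0.31. The median is -0.49 for AT-only units and -0.30 with 1 G or C, and the telomeric unit at 3.84 is above the axis.

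Single-base neighbours hold length and the other bases fixed. A neighbour is a unit that equals an AT-only unit but for 1 base replaced by G or C, in any rotation and on either strand. With at least 100 input reads on both sides there were 23 such pairs, over 7 AT-only units and 19 neighbours, so pairs share rows and are not independent. The AT-only unit had the lower ratio in 20 of 23 pairs. The interval of the difference lay on that side in 9 pairs, on the other side in 1 pair, and included 0 in 13 pairs. The median difference, neighbour minus AT-only unit, was 0.14 in log2 ratio, and the pairs ran from -0.21 to 0.31. The median was 0.087 in lane 1 alone, 0.16 in lane 2 alone and 0.099 with at least 1000 input reads on both sides. The read minimum was applied anew in each setting, so thinly covered pairs dropped out. These medians therefore do not all cover the same pairs.

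The pairs of (TA)n were the best measured. (TA)n had a log2 ratio of -0.56, against -0.26 for (CA)n and -0.30 for (GA)n, and these neighbours exceeded it by 0.30 (0.27 to 0.33) and 0.26 (0.22 to 0.30). (TTAA)n had -0.52, against -0.21 for (TGAA)n and -0.26 for (CAAT)n, with differences of 0.31 (0.14 to 0.48) and 0.26 (0.037 to 0.48). For (TAAA)n at -0.40 the difference was 0.15 (0.086 to 0.22) to (GAAA)n and 0.099 (0.031 to 0.17) to (CAAA)n. At 5 bases the picture was flatter, since (TAAAA)n at -0.28 differed by less than counting error from its neighbour (CAAAA)n at -0.32 and from the purine unit (GAAAA)n at -0.21. The pair that went the other way with an interval clear of 0 was (TAAA)n at -0.40 against (TAGA)n at -0.50, a difference of -0.10 (-0.17 to -0.034). (TTAAA)n had neighbours only under 100 input reads, and so had (A)n.

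The pairs were also split by whether the replaced base broke a T-to-A step. In the 15 pairs where the neighbour had fewer such steps, the AT-only unit was lower in 13, with an interval clear of 0 in 9. In the 8 pairs where the number of steps was the same, it was lower in 7, with an interval clear of 0 in 0 of them, and the 1 pair clear of 0 was the reversed one. The medians were 0.15 and 0.092 in log2 ratio. The shares with a lower AT-only unit were close in both sets, but the larger same-step differences rest on few reads. Those from 0.14 to 0.29 were of (CTAA)n with 195 input reads and (TAAG)n with 123, each paired with (TAAA)n and (TTAA)n. The best covered same-step neighbours were (TAGA)n with 14113 and (CATA)n with 9515 input reads. Against (TAAA)n they gave -0.10 (-0.17 to -0.034) and 0.012 (-0.057 to 0.081). (TAG)n against (TAA)n gave 0.019 (-0.18 to 0.22). The difference between the 2 sets of pairs was not tested.

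**Figure D4:**
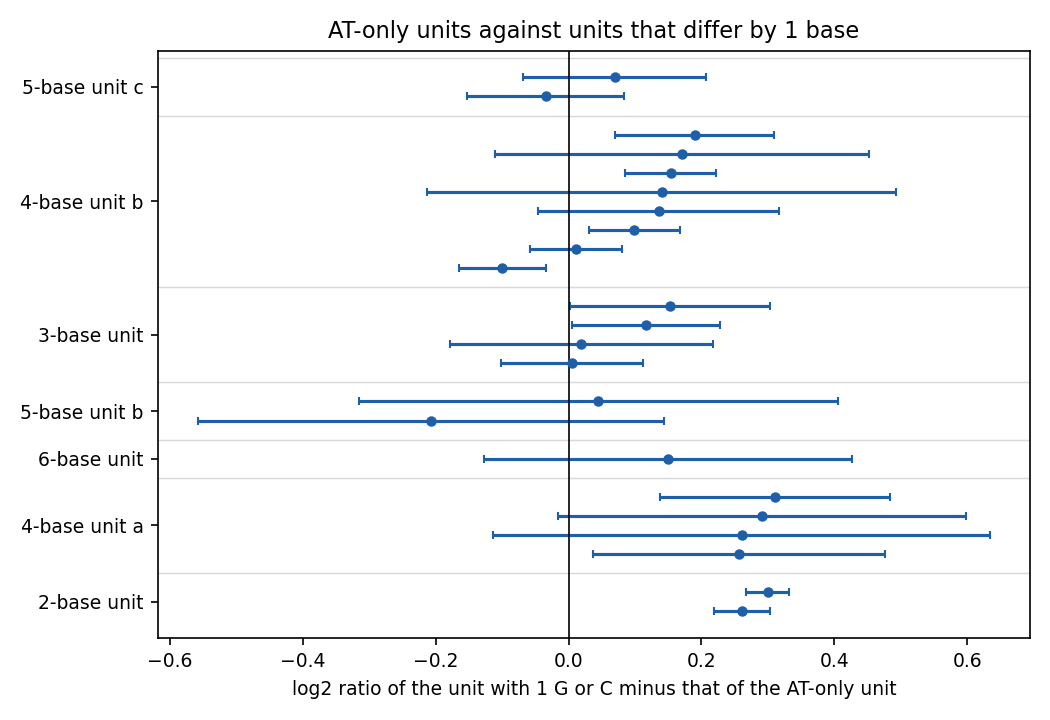
Difference in log2 ratio (x axis), unit with 1 G or C minus AT-only unit, for 23 pairs that differ by 1 base, grouped by AT-only unit (y axis, labelled by unit length, letters as in the plot of all members). Bars are 95% intervals of counting error. Of the 23 points, 20 lie right of 0, and both pairs of the 2-base unit lie at 0.26 or higher.

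The units with 1 G or C were also divided by whether they hold a T-to-A step. The 8 that keep a T-to-A step had a median log2 ratio of -0.42 and a pooled ratio of 0.729 (0.717 to 0.740). The pooled ratio of the AT-only rows was close at 0.722, but it was 0.780 (0.763 to 0.798) without (TA)n, so the closeness depends on that row. The 12 without such a step had a median of -0.28 and a pooled ratio of 0.827 (0.821 to 0.833). Intervals lay below the median repeat for 4 of the 8 and for 1 of the 12. This division was looked at after the pairs had been seen, and reads are dominated by a few rows in each set.

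The lanes gave close ratios for most of the 11 rows. The absolute lane difference had a median of 0.044 in log2 ratio, against 0.061 over all 704 rows. By point value all 9 AT-only rows were below input in both lanes, though the lane 1 interval of (TAAAAA)n included 1. A value below input was the usual case, since 79.5% of all 704 rows had an interval below 1 with lanes summed. The share in single lanes was not counted. Most of the rows were unevenly split between lanes in the same direction in both libraries. More reads than the totals give were in lane 1 for 10 of 11 rows in the ChIP and for 9 of 11 in the input, against 50.4% and 49.6% of all rows. For (TA)n the excess was 1.12-fold in the ChIP and 1.13-fold in the input, and for (TATAA)n it was 1.14-fold and 1.24-fold. The 2 libraries were split in opposite directions for (A)n, at 0.945-fold and 1.04-fold, and for (TAAAA)n, at 1.09-fold and 0.965-fold. The same held for (TAAAAA)n, at 1.07-fold and 0.774-fold. The log2 ratio of (TA)n nevertheless differed between lane 1 and lane 2 by -0.017 (-0.076 to 0.043), and what sets the uneven split was not tested. By the conservative log2 value of the authors' deposited table, which is 0 where their interval spans 0, 7 of 9 AT-only rows were below 0 in lane 1 and 8 of 9 in lane 2, against 40.8% and 40.2% of all 952 rows. These shares are not like for like, because the 952 rows include those under 100 input reads and the 9 AT-only rows do not. In the authors' deposited table that value was -0.365 and -0.346 for (TA)n, -0.32 and -0.337 for AT_rich, and 0.454 and 0.473 for GC_rich.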

How the data were processed

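Per the file headers, each deposited table gives unnormalized counts of ChIP and of input reads for every repeat type, with 1 table per lane and 2 lanes. The authors also deposited a log2 ratio with bounds. Bowtie 1.0.0 and build mm9 are named in the submitters' processing notes. The rule that gave a read its repeat type and the handling of multiple matches and of duplicates are not given in the sources used here. Reads of 50 bp from one array can match many copies, and the effect of that step on these arrays was not tested. Libraries were amplified for 10 cycles.

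Arrays of the longer units are not written out here. Lanes were summed. Ratios of table shares have exact conditional (Clopper-Pearson) 95% intervals, and differences between rows have normal intervals from the 4 counts, both for counting error only. Reads without molecular identifiers are not independent molecules. Library totals beyond the tables were not used. Lane totals were 6204712 and 6030765 ChIP reads and 4467116 and 4389635 input reads. Python 3.11.15, pandas 2.3.3 and SciPy 1.17.1 were used, and the intervals were tested on simulated data. Every low-complexity row and every AT-only row with at least 100 input reads is named, and rows outside this rule are neighbours or were picked with their values known, as said there. Only 1 low-complexity row is named for each kind of base, so the planned pooling of such rows equals GC_rich against AT_rich. The rows and comparisons were chosen with earlier results of these data known. Alternatives were each lane alone, 3 other scales, other read minimums and 1 added read.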

Additional observations from a re-analysis of the deposited data

How the results depend on the processing

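No paired analysis was possible because each group has 1 sample and no result comes from a test. The scale between the libraries adds 1 constant to every log2 ratio. The AT-only median became -0.18 with the median repeat set to 1, -0.29 without the 5 most abundant repeats by summed reads and -0.32 on the scale that the authors' deposited log2 ratios imply. The pooled AT-only log2 ratio became -0.16, -0.27 and -0.30 under these scales, against -0.47. Without (TA)n, an alternative added with the values known, it was -0.36. With the median repeat set to 1 the log2 ratios of (A)n and (TAAAA)n turned to 0.11 and 0.031. In lane 2 alone, 3 AT-only rows had an interval below the median repeat, against 6 in the summed lanes and 6 in lane 1 alone. (TTAAA)n had fewer than 100 input reads in lane 2, and the cause of the difference was not tested. The share of all rows below the median repeat was not counted in single lanes. The value of the 1-base unit relative to the median repeat was 0.033 in lane 1 and 0.17 in lane 2. With at least 1000 input reads, 6 AT-only rows were left and their median lay 0.16 below that of units with G or C (difference -0.16), against -0.29 with the main minimum, as different rows entered. The difference between GC_rich and AT_rich ran from 0.89 in lane 1 to 0.93 in lane 2. The median over neighbour pairs ran from 0.087 in lane 1 to 0.16 in lane 2, against 0.14. The pairs with the minimum were not the same in these settings, so a change of pairs and a change of values cannot be told apart. Depth limits (TTAAA)n and (TAAAAA)n most, and no interval covers the spread between cultures.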
